A study of Mus musculus with 12 samples.

Results

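The effect of dietary retinoic acid (RA) on the wild type mouse liver was read from 6 arrays, 3 from untreated wild type mice (WT) and 3 from RA-treated wild type mice (WT_RA), out of 12 arrays in the study. The mice were 12-week-old males on the C57BL/6 background. WT_RA mice were fed all-trans RA at 150 mg/kg of diet for 7 days, and WT mice were fed normal chow. The other 6 arrays came from hepatocyte RXRα-deficient mice (KO), 3 on the normal diet (KO) and 3 on the same RA diet (KO_RA). In the KO line, Cre recombinase driven by the albumin promoter removes the floxed exon for the DNA-binding domain of retinoid x receptor α, leaving a truncated protein with its ligand-binding domain. Each array measured total liver RNA of 1 mouse with an Affymetrix mouse chip, and the titles call the samples of a group biological replicates. The members were chosen by the sample titles, and 12393 genes with a symbol of their own were tested, each read from its brightest probe set.

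RA is the active form of vitamin A. It enters the nucleus and binds the retinoic acid receptors (RARs), which sit on DNA together with a retinoid x receptor and switch on target genes once RA is bound. The liver stores vitamin A, makes its carrier protein and breaks RA down with cytochrome P450 enzymes of the CYP26 family, whose own genes are RAR targets.

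All values are on the log2 scale, where a difference of 1 is a 2-fold difference in array signal. Array medians lay between 6.26 and 6.35. One WT_RA array, WT_RA 3, and one KO array, KO 1, stood apart in the control probe set for the 3' end of Actb, at 9.40 and 9.12 where the other 10 arrays had 12.13 to 12.93. Both were also the lowest arrays in the other Actb controls and in the 18S RNA controls. In the middle Actb control they read 7.63 and 7.58, where the others had 11.14 to 12.20. The Gapdh 3' control differed little, at 12.41 and 12.61 against 12.61 to 12.85. Results that rest on WT_RA 3 are therefore also given without it. Rank correlations between arrays over all genes were 0.988 to 0.994 within WT and 0.988 to 0.994 within WT_RA. Of the 14 hepatocyte markers measured, 0 passed the test, and their mean level was 12.70 to 12.93 on the WT arrays and 12.56 to 12.95 on the WT_RA arrays.

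RA changed 158 of the 12393 genes at a limma adjusted p under 0.05 (1.27% of the genes tested), 108 of which were higher (0.871%) and 50 lower (0.403%). Without adjustment, 1454 genes had a p under 0.05. The median change over all genes was -0.01. At least 2-fold changes were found for 53 of the higher genes and 15 of the lower genes. In all 158 genes the WT and WT_RA arrays did not overlap, which was also true of 16.6% of all genes tested. The number of genes called depended on the arrays in the fit. It was 95 without WT_RA 3 and KO 1, of which 78 were among the 158. Leaving out 1 array at a time gave 47 genes without WT 3, 56 without WT_RA 2, 63 without WT 2 and 63 without WT_RA 3, and up to 212 without KO 1. All 158 genes kept their direction in each of these fits.

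A core of 35 genes, 30 higher and 5 lower, was called in the fit of all arrays and in each of the 12 fits that left out 1 array. It is the base of the account below. Genes named beyond this core are given with the arrays, each left out on its own, without which their call was lost, and with the highest adjusted p of those fits. For every gene list below, the share called over all genes was 0.871% higher and 0.403% lower.

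**Figure D1:**
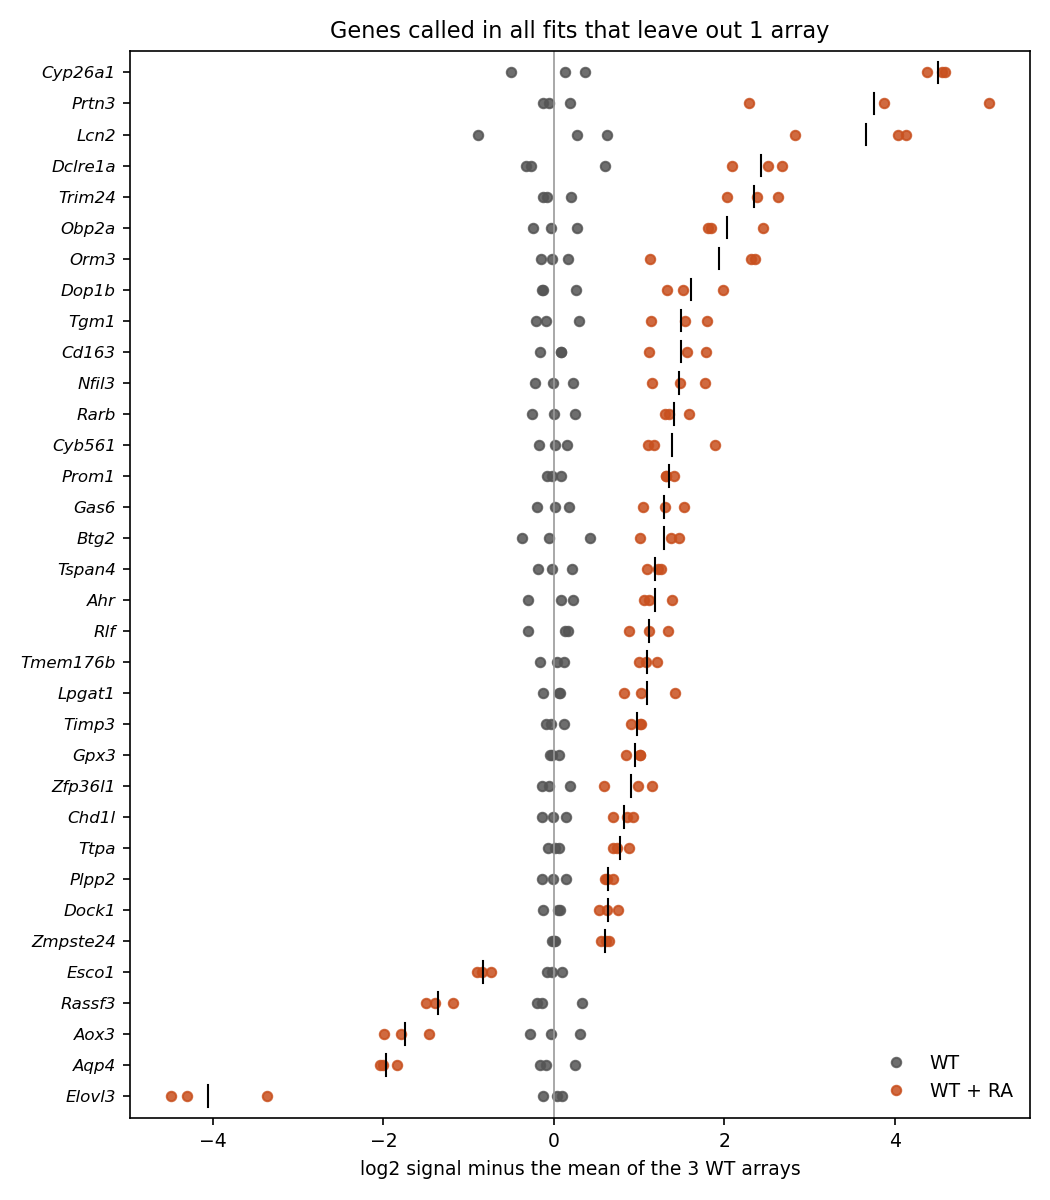
Log2 signal of 34 of the 35 core genes on each WT array (grey points) and WT_RA array (orange points), as the difference from the mean of the 3 WT arrays. Black ticks mark the mean difference, which ran from -4.05 for Elovl3 to 4.51 for Cyp26a1, and in each gene the points of the 2 groups lie apart.

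RA raised the gene for its own clearance, one of its receptors and a receptor coregulator, while most other genes of retinoid handling did not pass the test. Cyp26a1, the P450 that degrades RA, read 7.49, 8.36 and 8.11 on the WT arrays and 12.54, 12.58 and 12.37 on the WT_RA arrays. The WT_RA values lay close together and far above all WT values, a rise of 4.51 ± 0.18 (SE, n = 3, limma adjusted p = 1.19e-07) or 22.8-fold. It was the largest rise among the called genes. Of the other clearance genes, Cyp2c39, which also hydroxylates RA, read 9.67, 9.77 and 9.54 in WT and 10.32, 10.66 and 10.51 in WT_RA. These groups did not overlap, but the difference of 0.83 ± 0.29 did not pass (adjusted p = 0.243). Cyp2s1 differed by -0.23 (adjusted p = 0.428).

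Among the receptors, Rarb, which encodes RARβ, was the one that rose. It read 4.60, 4.85 and 5.10 in WT and 6.16, 6.44 and 6.20 in WT_RA, a rise of 1.42 ± 0.17 (adjusted p = 0.0026). The WT mean of 4.85 lies just under the lower quartile of the arrays (4.87 to 5.02), so the size of the rise is uncertain. Rara, which encodes RARα, differed by 0.01 (adjusted p = 0.994) and Rarg by 0.14 (adjusted p = 0.815). The RXR genes did not pass either, with differences of -0.34 for Rxra, -0.20 for Rxrb and 0.01 for Rxrg. Rxra read 10.82, 10.51 and 10.37 in WT and 10.49, 10.20 and 9.997 in WT_RA, with overlap, and 10.11, 10.66 and 10.84 in KO and 10.91, 10.76 and 10.85 in KO_RA. The position of its probe set relative to the removed exon is unstated in the sources, so it does not check the deletion. Trim24, a coregulator that binds liganded RARs, read 6.59, 6.92 and 6.64 in WT and 8.75, 9.35 and 9.10 in WT_RA. This rise of 2.35 ± 0.21 (adjusted p = 0.000297) made Trim24 the receptor-associated gene with the largest change. A dimmer Trim24 probe set differed by 0.70 and was not called, and the mean of both gave 1.52. By contrast, the coactivators Ncoa1, Ncoa2 and Ncoa3 differed by -0.10, -0.11 and 0.03. In all, 2 of 13 receptor and coregulator genes were higher, against 0.871% of all genes, and 0 lower, with a median change of 0.01.

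**Figure D2:**
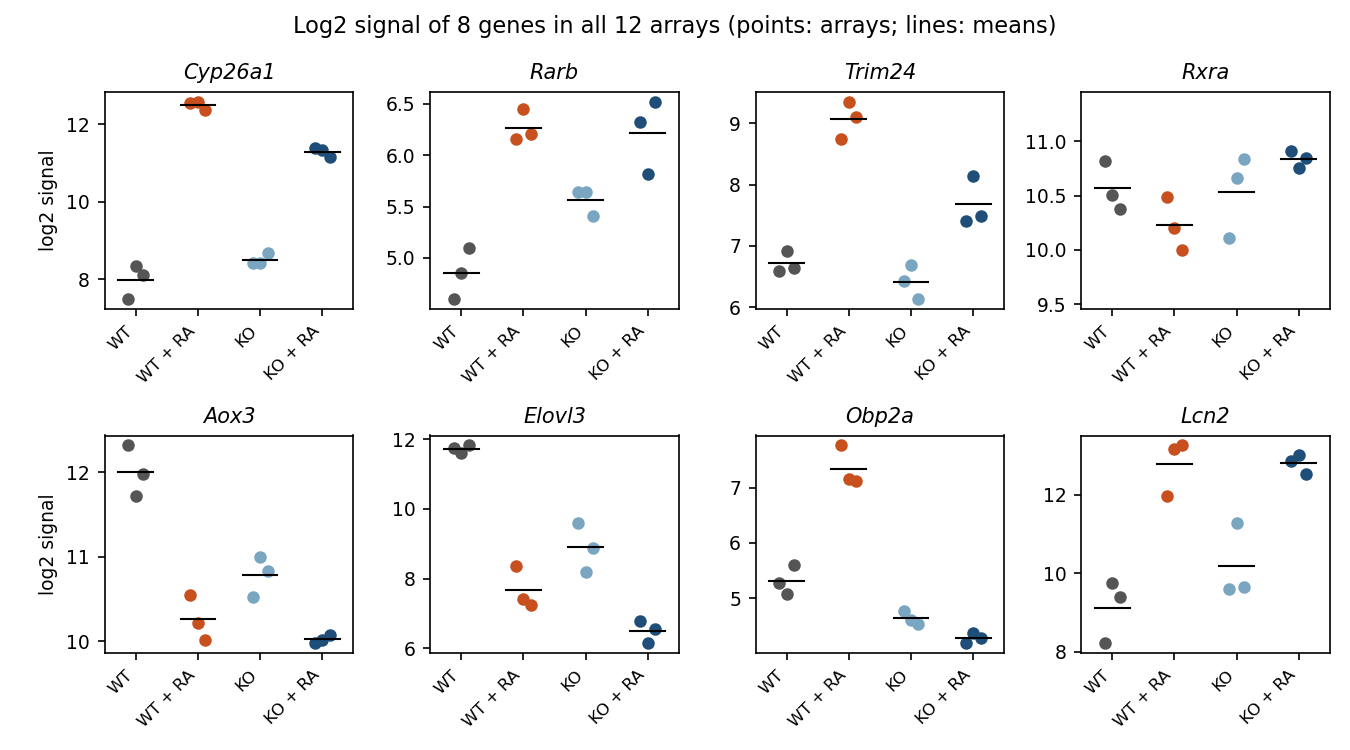
Log2 signal of 8 genes on all 12 arrays, with 1 panel per gene, points for arrays and lines for group means. Cyp26a1, Rarb, Trim24, Obp2a and Lcn2 are higher in WT_RA (orange) than in WT (grey), Aox3 and Elovl3 are lower, and the Rxra values of these groups overlap.

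Of 20 measured RAR target genes known from other tissues, 3 were higher and 0 lower. Over all genes, 0.871% were higher. The median change of the 20 targets was 0.10. The 3 that rose were Cyp26a1, Rarb and Tgm2, which encodes the cross-linking enzyme tissue transglutaminase. Tgm2 read 9.22, 8.85 and 9.20 in WT and 9.79, 10.13 and 10.52 in WT_RA, a rise of 1.06 ± 0.21 (adjusted p = 0.0296). Its call was lost without WT 1, 2 or 3, or WT_RA 2 or 3, with an adjusted p as high as 0.123. Hoxa5, a developmental transcription factor, and Lrat, which esterifies retinol for storage, had groups without overlap but did not pass (differences of 0.45 and 0.33, adjusted p = 0.0819 and 0.121). Other classical targets lay close to 0. Dhrs3, which reduces retinaldehyde, differed by 0.17, the retinol transporter gene Stra6 by -0.045, the RA-binding protein gene Crabp2 by -0.01 and the meiosis gene Stra8 by 0.01.

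Of 32 measured genes for retinoid uptake, storage and synthesis, 0 were higher and 1 was lower, with differences from -1.75 to 0.63. The one that fell was Aox3, a hepatic aldehyde oxidase, an enzyme class that can oxidize retinaldehyde to RA. It read 12.32, 11.72 and 11.98 in WT and 10.55, 10.21 and 10.02 in WT_RA, with all RA arrays more than 1 unit below all WT arrays, and fell by 1.75 ± 0.17 (adjusted p = 0.000475). Its relative Aox1 read 9.96, 9.82 and 9.63 in WT and 9.53, 8.93 and 8.71 in WT_RA, a difference of -0.74 that did not pass (adjusted p = 0.104).

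RAR and RXR bind as a pair to 2 copies of a hexamer in the same orientation, most often with 5 bases between them. The promoter windows of RefSeq (GRCm38.p6) ran from 250 bases before to 50 bases after an annotated start site of a gene. This need not be the gene's outermost start. They were searched on both strands for the consensus hexamer AGGTCA and for its variants, namely GGGTCA, then also AGTTCA, and lastly GGTTCA. Each had to be followed by 5 bases and any of these hexamers again. Of the 108 genes that rose, 89 had a window, and 2 of these (2.25%) held such a repeat, namely Cyp26a1 and Rarb. Of the 50 genes that fell, 35 had a window and 0 held one. Over all measured genes, 6 of 9887 windows (0.0607%) held one. The other 4 were those of Blvrb, which differed by 0.59 (adjusted p = 0.221), Hbb-y by -0.14, Ppbp by 0.14 and Tnfsf13b by -0.04, none of which passed. Blvrb was called without WT_RA 3 and KO 1 (0.76, adjusted p = 0.00868). With 2 or 1 bases between the hexamers, 0 of the windows of genes that rose and 0 of those of genes that fell held a repeat, against 0.101% and 0.223% of all windows. The hexamers were chosen with earlier results of these data known, and Cyp26a1 and Rarb are RAR targets known from other tissues. The shares are therefore a description, and no test was run on them. A match describes these letters only, and enhancers outside the windows were not searched.

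The repeats are shown because they stood in the 2 RA-responsive retinoid genes, read here on the strand that gives a direct repeat, with the hexamers in capitals and the 5 bases between them in lower case.
Cyp26a1: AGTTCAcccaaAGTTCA
Rarb: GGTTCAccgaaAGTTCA
Both have AGTTCA as the downstream hexamer, and their upstream hexamers are AGTTCA in Cyp26a1 and GGTTCA in Rarb. The full windows follow in the direction of transcription, with the repeat in capitals. The Rarb window lies inside the span of the gene, at a start site within it and not at its outer end. The Cyp26a1 window begins before the span of its gene, but its start site and its repeat also lie within that span. The Cyp26a1 window (chr19:37697558-37697857, plus strand) holds it on the opposite strand with its first base at -32 from the start site, and the Rarb window (chr14:16575427-16575726, minus strand) holds it in the direction of transcription with its first base at -53.
Cyp26a1 promoter: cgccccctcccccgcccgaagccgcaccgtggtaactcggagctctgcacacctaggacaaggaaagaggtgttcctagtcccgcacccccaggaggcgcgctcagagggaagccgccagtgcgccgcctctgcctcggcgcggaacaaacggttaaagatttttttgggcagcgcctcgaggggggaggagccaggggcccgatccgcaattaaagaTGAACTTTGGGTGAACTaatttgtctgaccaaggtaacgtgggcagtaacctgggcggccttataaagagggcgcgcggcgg
Rarb promoter: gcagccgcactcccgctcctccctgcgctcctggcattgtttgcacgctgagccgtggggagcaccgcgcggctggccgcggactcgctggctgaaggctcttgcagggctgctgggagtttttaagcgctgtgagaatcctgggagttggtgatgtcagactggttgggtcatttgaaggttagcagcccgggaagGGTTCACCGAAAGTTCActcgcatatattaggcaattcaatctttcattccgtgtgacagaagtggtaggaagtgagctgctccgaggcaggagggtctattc

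Acute phase genes, which the liver switches on during inflammation, were the list with the most calls. Of 31 measured, 9 were higher, against 0.871% of all genes, and 0 were lower. A positive difference was found in 30, and the median was 0.64 against -0.01 for all genes. Lcn2, which encodes the siderophore-binding protein lipocalin 2, read 8.23, 9.75 and 9.39 in WT and 11.96, 13.16 and 13.26 in WT_RA. The lowest RA array lay more than 2 units above the highest WT array, and the rise was 3.67 ± 0.49 (adjusted p = 0.00445) or 12.7-fold. Orm3, an orosomucoid gene, read 7.62, 7.81 and 7.49 in WT and 8.77, 9.96 and 10.001 in WT_RA and rose by 1.94 ± 0.27 (adjusted p = 0.00553). Lcn2 and Orm3 belong to the core. In both, as in the list mean, WT_RA 1 was the lowest of the RA arrays. The list mean was 11.10 to 11.15 on the WT arrays, 11.69 on WT_RA 1, 12.23 on WT_RA 2 and 12.31 on WT_RA 3. The remaining risers were Orm2, the serum amyloid A genes Saa3 and Saa4, the metallothionein genes Mt1 and Mt2, the endotoxin coreceptor gene Cd14 and the metalloreductase gene Steap4, and each of these calls depended on single arrays. Saa3 (2.22 ± 0.47, adjusted p = 0.0431) lost its call without WT 1, 2 or 3, WT_RA 2 or 3, KO 3, or KO_RA 1 (up to 0.162) and Saa4 (0.55 ± 0.11, adjusted p = 0.0407) lost its call without WT 1, 2 or 3, WT_RA 1, 2 or 3, or KO_RA 1, 2 or 3 (up to 0.159). Mt1 (1.25 ± 0.27, adjusted p = 0.0442) lost its call without WT 2 or 3, WT_RA 1, 2 or 3, or KO_RA 1, 2 or 3 (up to 0.148) and Mt2 (1.53 ± 0.27, adjusted p = 0.0203) lost its call without WT_RA 2 or 3 (up to 0.0732). Cd14 (1.12 ± 0.24, adjusted p = 0.0452) lost its call without WT 1, 2 or 3, WT_RA 2 or 3, KO 2 or 3, or KO_RA 1 or 3 (up to 0.167) and Steap4 (1.495 ± 0.29, adjusted p = 0.0296) lost its call without WT 1, 2 or 3, or WT_RA 2 or 3 (up to 0.115). Orm2 rose by 2.94 ± 0.49 (adjusted p = 0.0154), lost without WT 1 or 3, or WT_RA 2 or 3 with an adjusted p as high as 0.0654. Orm genes and Saa genes are families with closely similar sequences, so their probe sets may share signal. Saa2, a major serum amyloid A gene, read 9.45, 10.40 and 10.59 in WT and 11.65, 14.07 and 14.36 in WT_RA, with WT_RA 1 more than 2 units below the other RA arrays, and its difference of 3.21 ± 0.76 did not pass (adjusted p = 0.0693). Without WT_RA 3 and KO 1 the list median was 0.56 and 4 members were called.

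Prtn3, the gene for the granule protease proteinase 3, had the second largest rise of the core. It read 4.88, 4.81 and 5.12 in WT and 7.23, 8.81 and 10.04 in WT_RA, so that the RA arrays covered a range of nearly 3 units, all above WT (rise of 3.76 ± 0.59, adjusted p = 0.0102). It also rose in the RXRα-deficient liver, from 4.56, 5.25 and 4.75 in KO to 8.38, 8.64 and 6.89 in KO_RA. Granulocyte markers did not pass with it, since 0 of 13 were called and their median change was 0.05. Among them, Mpo and Elane, which are made together with Prtn3 in granulocyte precursors, differed by -0.08 and 0.04. S100a8 and S100a9, which encode abundant neutrophil proteins, read higher without passing (differences of 2.25 and 1.53, adjusted p = 0.0985 and 0.14).

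Other inflammation-related genes rose outside the core. Nfkbiz, a nuclear regulator of NF-κB target genes, read 6.87, 7.50 and 6.26 in WT and 8.79, 9.58 and 9.95 in WT_RA (rise of 2.56 ± 0.39, adjusted p = 0.00966), and Cxcl14, a chemokine gene, read 5.33, 6.46 and 5.45 in WT and 8.45, 8.85 and 9.78 in WT_RA (rise of 3.28 ± 0.50, adjusted p = 0.00966). Both calls were lost only without WT 3, with adjusted p of 0.0502 and 0.0509. Igfbp1, which encodes an insulin-like growth factor binding protein secreted by hepatocytes, had the same dependence, with 10.23, 8.85 and 9.41 in WT and 11.25, 12.34 and 11.34 in WT_RA (rise of 2.15 ± 0.33, adjusted p = 0.00966, and 0.0502 without WT 3). Il33, an alarmin cytokine gene, rose by 1.31 ± 0.23 (adjusted p = 0.0203, lost without WT 1, 2 or 3, or WT_RA 2, up to 0.0625). Of 25 measured genes of cytokine signalling, 1 was higher and 0 lower with a median of 0.35, and of 19 chemokine genes, 2 were higher and 0 lower with a median of 0.07. Of 22 interferon-response genes, 0 were called, with a median of 0.02, and antigen presentation genes had 0 of 15 called with a median of -0.02.

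Markers of Kupffer cells, the resident macrophages of the liver, read higher in WT_RA throughout, although few passed. Of 16 measured, 16 had a positive difference, and the median was 1.01 against -0.01 for all genes. Groups did not overlap in 13, which was true of 16.6% of all genes tested. The test called 2 of them, against 1.27% of all genes. Cd163, the scavenger receptor for haptoglobin-bound hemoglobin, read 5.96, 5.96 and 5.71 in WT and 6.99, 7.44 and 7.67 in WT_RA, a rise of 1.49 ± 0.19 (adjusted p = 0.00299) and a core gene. Fcna, a ficolin gene, rose by 1.03 ± 0.16 (adjusted p = 0.0113), lost without WT 2 or 3 with an adjusted p as high as 0.0585. Clec4f, a lectin gene specific to these cells, read 7.89, 7.77 and 7.77 in WT and 8.39, 8.59 and 8.98 in WT_RA, and Csf1r, the macrophage growth factor receptor gene, read 8.77, 8.88 and 9.05 in WT and 9.59, 9.67 and 10.69 in WT_RA. Neither passed (differences of 0.85 ± 0.38 and 1.08 ± 0.36, adjusted p = 0.412 and 0.205). The mean level of the list was 7.11, 7.19 and 7.33 on the WT arrays and 7.78, 7.96 and 8.57 on the WT_RA arrays, the highest on WT_RA 3. In KO it ran from 7.45 to 9.41 and in KO_RA from 7.76 to 7.96, so the list varied more among the KO arrays than between WT and WT_RA. Without WT_RA 3 and KO 1 its median was 0.74. In whole liver, more cells of a type and more RNA per cell cannot be told apart.

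**Figure D3:**
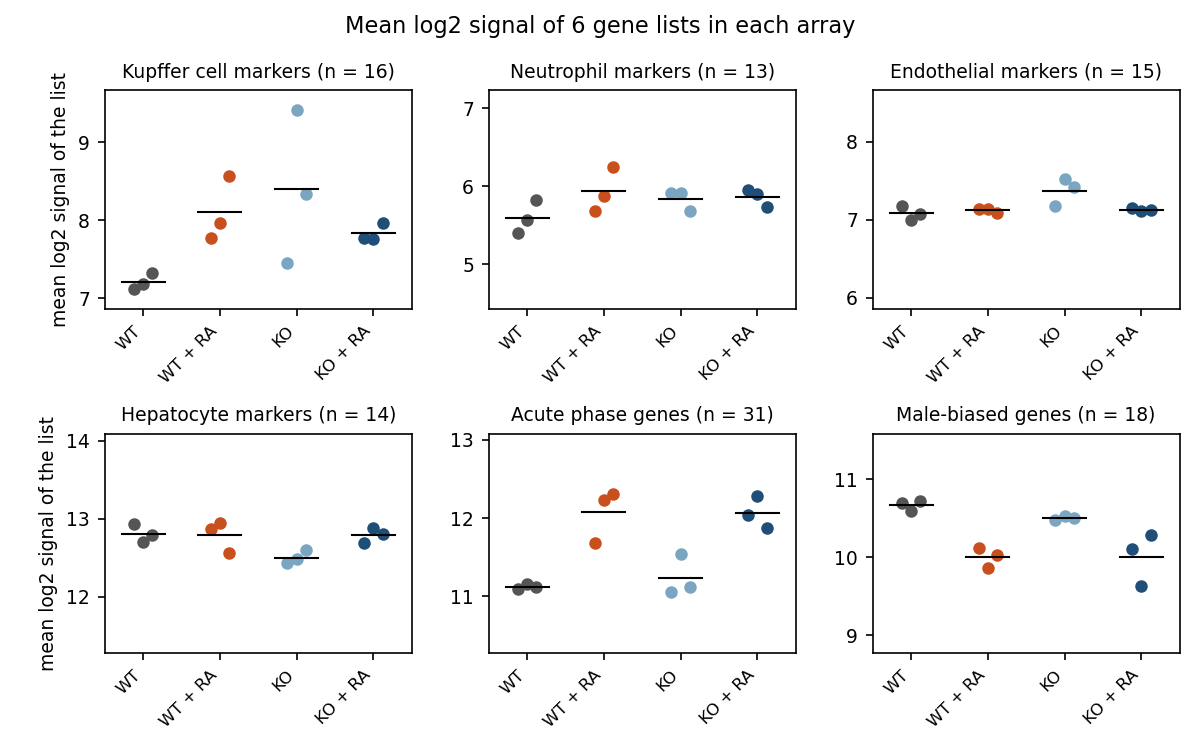
Mean log2 signal of 6 gene lists on each of the 12 arrays, with points for arrays, lines for group means and the number of genes measured in each title. Kupffer cell markers are at 7.78 to 8.57 on the WT_RA arrays against 7.11 to 7.33 on the WT arrays, while endothelial and hepatocyte markers overlap between these groups.

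Several called genes outside the list are known from macrophages or sinusoidal cells or, for Gas6, encode a ligand of macrophage receptors. They are given beside the marker values since the part of cell numbers in them was not tested. Gas6, the ligand of the TAM receptors through which macrophages take up dying cells, was in the core. It read 6.67, 6.88 and 7.05 in WT and 7.91, 8.18 and 8.39 in WT_RA and rose by 1.29 ± 0.17 (adjusted p = 0.00343). In the RXRα-deficient liver it read 6.35, 6.32 and 6.50 in KO and 6.28, 6.38 and 5.77 in KO_RA. Mrc1, the mannose receptor gene, was nearly constant in WT at 8.01, 8.01 and 7.995 and read 8.67, 8.55 and 9.05 in WT_RA (rise of 0.75 ± 0.13, adjusted p = 0.0209, lost without WT 1, 2 or 3, or WT_RA 3, up to 0.0782). Clec1b, a C-type lectin receptor gene, rose by 1.62 ± 0.29 (adjusted p = 0.0206, lost without WT 2 or 3, or WT_RA 3, up to 0.0875). Endothelial markers had 0 of 15 called with a median of -0.01, stellate cell markers 0 of 15 with 0.07 and lymphocyte markers 0 of 13 with 0.00. Outside the endothelial list, the endothelial genes Thbd and Cd93 were called (rises of 1.25 and 0.86) and are described with neighboring genes below. Of 9 cholangiocyte markers 1 was called, Prom1, which encodes the membrane protein CD133 and belongs to the core. It read 4.72, 4.89 and 4.78 in WT and 6.114, 6.12 and 6.21 in WT_RA, a rise of 1.35 ± 0.14 (adjusted p = 0.000748) from a low level, while the median of these markers was 0.13. Of 5 erythroid markers 0 were called, and their median was -0.07, with differences from -1.84 to 0.06. Their mean level was 6.05 to 6.20 on the WT arrays and 5.30 to 5.92 on the WT_RA arrays, without overlap.

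Further core genes act in DNA repair and on chromatin. Dclre1a, a nuclease that unhooks DNA cross-links, read 6.63, 7.49 and 6.57 in WT and 9.57, 9.41 and 8.99 in WT_RA and rose by 2.43 ± 0.29 (adjusted p = 0.0023). Another Dclre1a probe set of lower mean signal differed by 0.14 and was not called. Chd1l, a chromatin remodeler recruited to DNA damage, rose by 0.83 ± 0.09 (adjusted p = 0.00135). Esco1, the acetyltransferase that locks cohesin on chromatin, fell from 7.25, 7.43 and 7.31 in WT to 6.59, 6.49 and 6.43 in WT_RA, a fall of 0.83 ± 0.12 (adjusted p = 0.00857). Cell cycle genes as a list did not pass, with 0 of 25 called and a median of 0.18.

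A further part of the core consisted of transcription factors and other regulators of mRNA. Ahr, the aryl hydrocarbon receptor gene, read 8.05, 8.57 and 8.43 in WT and 9.42, 9.47 and 9.73 in WT_RA and rose by 1.19 ± 0.18 (adjusted p = 0.00857), although another, dimmer probe set differed by 0.00. Tiparp, an AHR target that limits AHR activity, rose by 1.07 ± 0.21 (adjusted p = 0.0293), lost without WT 1, 2 or 3, or WT_RA 2 or 3 with an adjusted p as high as 0.12. The list of xenobiotic metabolism, which is mostly of P450 genes and includes the AHR targets Cyp1a1 and Cyp1a2, had 1 of 19 members called. This was Fmo5, a flavin-containing monooxygenase gene and not a P450, with a rise of 0.86 ± 0.18 (adjusted p = 0.0392) that was lost without WT 1, 2 or 3, WT_RA 1, 2 or 3, KO 3, or KO_RA 2 (up to 0.133). Nfil3, a repressor of the circadian output pathway, read 7.57, 7.33 and 7.11 in WT and 8.82, 9.11 and 8.49 in WT_RA and rose by 1.47 ± 0.17 (adjusted p = 0.0023). Of 17 clock genes measured, 2 were higher, Nfil3 and Cry1, and 1 was lower, Nr1d1, with a median of 0.08. Cry1 rose by 1.16 ± 0.21 (adjusted p = 0.0226, lost without WT 2 or 3, or WT_RA 2, up to 0.0959). Nr1d1, the nuclear receptor REV-ERBα, read 9.03, 8.62 and 8.999 in WT and 7.20, 7.12 and 7.08 in WT_RA, and its fall of 1.75 ± 0.34 (adjusted p = 0.0287) was lost without any one of these 6 arrays, with an adjusted p as high as 0.106. The sources state no hour of liver collection, and its part in these values was not tested. Btg2, an antiproliferative immediate early gene, rose by 1.29 ± 0.20 (adjusted p = 0.00966), and Rlf, a zinc finger gene, rose by 1.11 ± 0.15 (adjusted p = 0.00506).

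Among core genes with other roles, Obp2a, a lipocalin of the odorant-binding family, read 5.28, 5.07 and 5.59 in WT and 7.77, 7.16 and 7.12 in WT_RA and rose by 2.04 ± 0.17 (adjusted p = 0.000219). Tgm1, the transglutaminase of the epidermal barrier, rose by 1.496 ± 0.21 (adjusted p = 0.00632), from 6.34, 5.97 and 5.85 in WT to 7.20, 7.85 and 7.60 in WT_RA, so that both Tgm1 and Tgm2 were higher. Cyb561, an electron carrier that uses ascorbate, rose by 1.39 ± 0.17 (adjusted p = 0.00261) and Tspan4, a tetraspanin gene, by 1.19 ± 0.11 (adjusted p = 0.000297). Dop1b, which takes part in endosomal sorting, is described with its neighbors below. The other 10 core genes that rose changed by 0.60 to 1.10, and some of them are named here after their values were seen. Ttpa, the hepatic carrier of vitamin E, was already among the brighter genes at 11.93, 11.97 and 11.84 in WT and read 12.61, 12.79 and 12.66 in WT_RA. Timp3, an inhibitor of matrix metalloproteinases, read 6.81, 6.75 and 6.96 in WT and 7.87, 7.75 and 7.85 in WT_RA, and Gpx3, a secreted glutathione peroxidase, read 6.48, 6.45 and 6.56 in WT and 7.35, 7.51 and 7.51 in WT_RA. In these genes the arrays of a group lay close together and far from those of the other group. Lpgat1, an acyltransferase of phosphatidylglycerol synthesis and the 1 member of 18 measured phospholipid genes that was called, rose by 1.09 ± 0.13 (adjusted p = 0.0023). Of the 35 core genes, 13 had several probe sets, and in 12 of these no other probe set of the gene was called, the exception being Lpgat1. When the probe sets of a gene were averaged in place of using the brightest, 31 of the 35 core genes were called. The exceptions were Ahr, Btg2, Plpp2 and Zfp36l1.

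The largest fall was that of Elovl3, an elongase that makes very long chain fatty acids. It read 11.76, 11.59 and 11.82 in WT and 8.35, 7.42 and 7.24 in WT_RA, a fall of 4.05 ± 0.33 (adjusted p = 0.000219) or 16.6-fold, and the RA array with the highest value was still more than 3 units below the lowest WT array. Aqp4, a water channel gene, read 5.89, 5.48 and 5.55 in WT and 3.59, 3.79 and 3.63 in WT_RA and fell by 1.96 ± 0.24 (adjusted p = 0.00257). Its WT_RA values are near the floor of the array, so the size of the fall has no firm value. In the RXRα-deficient liver Aqp4 read 8.48, 8.58 and 8.20 in KO and 8.37, 7.81 and 9.04 in KO_RA, far above both wild type groups. Rassf3, a Ras association domain gene, read 8.86, 8.34 and 8.40 in WT and 7.36, 7.04 and 7.14 in WT_RA and fell by 1.36 ± 0.15 (adjusted p = 0.00127). Of 6 aquaporin genes, 1 was lower, Aqp4, and the median was -0.03, while Aqp1 was also called, as higher, without WT_RA 3 and KO 1 (0.73, adjusted p = 0.0444).

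Male-biased liver genes, which respond to the male pattern of growth hormone, read lower in most cases. Of 18 measured, 3 were lower, against 0.403% of all genes, and 0 were higher. A negative difference was found in 16, and the median was -0.38 against -0.01 for all genes. The list mean was 10.59 to 10.72 on the WT arrays and 9.86 to 10.12 on the WT_RA arrays. The 3 that fell were Elovl3, Hsd3b5 and Cyp4a12a. Hsd3b5, a male-specific hydroxysteroid dehydrogenase gene, read 11.66, 11.92 and 11.89 in WT and 10.82, 9.40 and 9.98 in WT_RA (fall of 1.75 ± 0.36, adjusted p = 0.0357), lost without WT 1, 2 or 3, WT_RA 2 or 3, or KO 3 with an adjusted p as high as 0.13. Cyp4a12a, a fatty acid ω-hydroxylase, fell by 0.71 ± 0.15 (adjusted p = 0.042), lost without WT 1, 2 or 3, WT_RA 1, 2 or 3, KO 2 or 3, or KO_RA 1 with an adjusted p as high as 0.157. Without WT_RA 3 and KO 1 the male-biased median was -0.49 and 2 members were called, Elovl3 and Gstp1. Gstp1 then differed by -0.58 (limma adjusted p = 0.0356), while Hsd3b5 and Cyp4a12a were not called (0.12 and 0.133). Of 23 female-biased genes, 1 was higher, Trim24, and 0 were lower, with a median of 0.20. Without WT_RA 3 and KO 1, 5 of them were called with a median of 0.14, namely Trim24, the P450 genes Cyp4a14 and Cyp2b10, and the acyl-CoA thioesterase genes Acot3 and Acot4 (rises of 2.34, 4.85, 0.98, 1.14 and 0.84). Hsd17b6, which converts androgen metabolites, fell by 1.71 ± 0.31 (adjusted p = 0.0213, lost without WT 1 or 3, or WT_RA 2 or 3, up to 0.0899). With it, 2 of 14 steroid metabolism genes were lower, against 0.403% of all genes, and 0 higher.

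Few bile acid genes were called, and those that were fell. They included Cyp8b1, at the branch toward cholic acid, and the canalicular export pump gene Abcb11. Of 15 genes of bile acid synthesis, 2 were lower, against 0.403% of all genes, and 0 higher, with a median of -0.09. Cyp8b1, the sterol 12α-hydroxylase, read 11.47, 12.02 and 11.95 in WT and 10.64, 9.99 and 8.27 in WT_RA, which covers more than 2 units among the RA arrays alone (fall of 2.18 ± 0.43, adjusted p = 0.0308). Without WT_RA 3 and KO 1 the Cyp8b1 difference was smaller, at -1.50, and was called (limma adjusted p = 0.00929). Hsd3b7 fell by 0.63 ± 0.11 (adjusted p = 0.0203) and Abcb11, the bile salt export pump and the 1 of 16 bile acid transport genes that was called, by 0.63 ± 0.12 (adjusted p = 0.0308). Their calls were lost without WT 1, 2 or 3, WT_RA 2, or KO_RA 3 for Cyp8b1 (up to 0.117), without WT 2 or 3, or WT_RA 2 or 3 for Hsd3b7 (up to 0.0798) and without WT 1 or 2, or WT_RA 1, 2 or 3 for Abcb11 (up to 0.115). Cyp7a1, the rate-limiting enzyme of bile acid synthesis, read 8.99, 10.52 and 10.56 in WT and 10.34, 9.08 and 9.24 in WT_RA, with overlap.

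Of 21 genes of fatty acid synthesis, 2 were lower, Elovl3 and Me1, against 0.403% of all genes, and 0 higher, with a median of -0.26. Me1, the malic enzyme that supplies NADPH, fell by 0.98 ± 0.21 (adjusted p = 0.0461), and Lpl, lipoprotein lipase, fell by 1.29 ± 0.25 (adjusted p = 0.0308) as the 1 called of 25 triglyceride genes. Me1 lost its call without WT 1, 2 or 3, WT_RA 2 or 3, KO 1, 2 or 3, or KO_RA 2 or 3, with an adjusted p as high as 0.174, and Lpl without WT 1 or 3, or WT_RA 1, 2 or 3, with an adjusted p as high as 0.12. Apoa4, an apolipoprotein gene, was the 1 called of 22 lipoprotein genes and read 10.68, 10.38 and 10.34 in WT and 11.54, 11.49 and 11.53 in WT_RA (rise of 1.05 ± 0.20, adjusted p = 0.0255, lost without WT 2 or 3, or WT_RA 1, 2 or 3, up to 0.103). The lists of cholesterol synthesis (18 measured), mitochondrial fatty acid oxidation (21) and PPARα and peroxisomal genes (25) had 0 called, with medians of 0.18, 0.01 and 0.01. The last of these counts depended on the arrays that stood apart, since 4 PPARα and peroxisomal genes were called without WT_RA 3 and KO 1, with a median of 0.16. They were Cyp4a14, Cyp4a31, Acot3 and Acot4, which rose by 4.85, 0.75, 1.14 and 0.84 (adjusted p = 0.00929, 0.0407, 0.0405 and 0.0374), against 3.40, 0.52, 0.85 and 0.53 with all arrays (adjusted p = 0.153, 0.243, 0.149 and 0.357). The cholesterol synthesis median turned to -0.09 without WT 1. Cebpa, the liver-enriched transcription factor C/EBPα, is named after its values were seen. It read 12.01, 11.89 and 11.73 in WT and 11.03, 10.94 and 11.13 in WT_RA and fell by 0.85 ± 0.13 (adjusted p = 0.0102), a call lost without WT_RA 2 (adjusted p = 0.0532).

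Some genes that rose lay near each other on a chromosome. In the gene order of RefSeq (GRCm38.p6), 32 of the 108 genes that rose (29.6%) had another gene that rose within 5 measured genes on either side, whereas 7.66% of all measured genes had a gene that rose within that distance. For genes that fell the shares were 4 of 50 (8%) and 3.91%. The window of 5 genes was chosen after the values were seen, and no test was run on it. Directly adjacent pairs numbered 9 and held 18 of the genes that rose. Of these pairs, 4 are paralogs that probe sets may not separate, namely Orm2 with Orm3, Saa3 with Saa4, Mt1 with Mt2, and Tmem176a with Tmem176b. The call of Tmem176a was lost without WT 1, 2 or 3, or WT_RA 2 or 3 (up to 0.0801). The other pairs included Zmpste24, the protease of prelamin A, and Rlf (rises of 0.60 and 1.11), Chd1l and Fmo5 (rises of 0.83 and 0.86), and Thbd and Cd93, which encode endothelial C-type lectin domain proteins (rises of 1.25 and 0.86). Zmpste24 and Rlf both belong to the core. Obp2a lay 3 measured genes from Fcna. Among genes that fell, the adjacent Hal and Amdhd1 both encode enzymes of histidine breakdown, with falls of 0.85 and 0.996 (adjusted p = 0.0428 and 0.0404). The Hal call was lost without WT 1, 2 or 3, WT_RA 1, 2 or 3, or KO_RA 1 (up to 0.163) and the Amdhd1 call without WT 1, 2 or 3, WT_RA 2 or 3, or KO_RA 1, 2 or 3 (up to 0.144). For the pairs outside the core, Thbd lost its call without WT 2 or 3, or WT_RA 2 (up to 0.0985) and Cd93 without WT 2 or 3, or WT_RA 2 or 3 (up to 0.0875).

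The longest run was on chromosome 16 around Dop1b, shown for that reason. Dop1b read 6.93, 7.33 and 6.92 in WT and 9.05, 8.58 and 8.40 in WT_RA and rose by 1.61 ± 0.22 (adjusted p = 0.00445). A dimmer Dop1b probe set differed by 0.094 and was not called, and the mean of both gave 0.85. The direct neighbor Morc3, a nuclear body ATPase gene, read 6.91, 6.66 and 6.24 in WT and 7.91, 7.80 and 8.04 in WT_RA and rose by 1.31 ± 0.21 (adjusted p = 0.0112, and 0.0509 without WT 3). Further along, Cldn14, a tight junction gene, rose by 0.70 ± 0.13 (adjusted p = 0.0213) and Pigp, a gene of GPI anchor synthesis, by 0.52 ± 0.10 (adjusted p = 0.0318). The Cldn14 call was lost without WT 2 or 3, or WT_RA 1 or 3 (up to 0.0899) and the Pigp call without WT 1, 2 or 3, WT_RA 2 or 3, or KO_RA 1 or 3 (up to 0.124). Between them lay Chaf1b, Sim2, Hlcs and Ripply3, with differences of 0.32, -0.16, 0.12 and 0.16 that did not pass. On the other side, Cbr1 differed by 0.63 and Setd4 by 0.44 without passing (adjusted p = 0.118 and 0.193). In the RXRα-deficient liver the differences were 0.40 for Dop1b and 0.054 for Morc3, and neither passed.

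**Figure D4:**
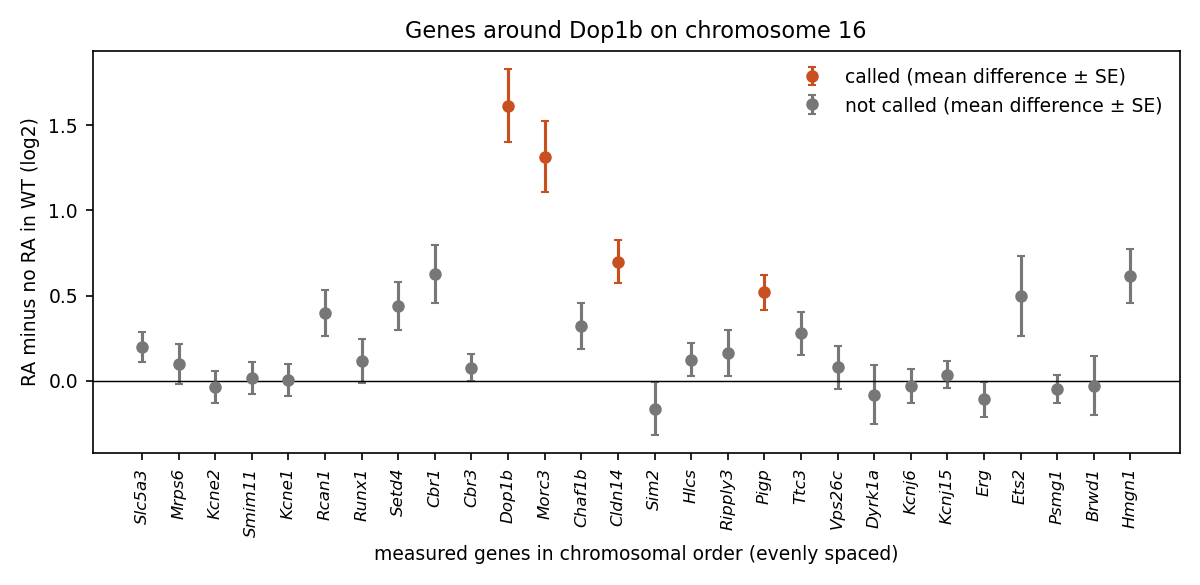
Difference between WT_RA and WT in log2 units, with the SE of the limma fit, for 28 measured genes in chromosomal order around Dop1b. Dop1b (1.61), Morc3 (1.31), Cldn14 (0.70) and Pigp (0.52) were called (orange), and the others were not (grey).

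The same diet in RXRα-deficient liver was set beside these changes. In KO_RA against KO, 62 genes were called (0.5% of the genes tested), and 20 of them were among the 158 with the same direction, which is 12.7% of the wild type calls and 32.3% of the KO calls. Of the 108 genes that rose in wild type liver, 83 had a positive difference in KO liver with a median of 0.27, and of the 50 that fell, 40 had a negative one with a median of -0.16. The shares of all genes with each sign in KO liver were not counted. These counts are therefore a description and do not measure how far the genotypes responded alike. Of the 35 core genes, 9 were also called in KO liver in the same direction, namely Cyp26a1, Prtn3, Lcn2, Trim24, Orm3, Lpgat1, Timp3, Gpx3 and Elovl3. Cyp26a1 rose there from 8.43, 8.43 and 8.69 in KO to 11.39, 11.34 and 11.15 in KO_RA, by 2.78 (adjusted p = 3.35e-05), and Elovl3 read 9.60, 8.20 and 8.88 in KO and 6.80, 6.16 and 6.55 in KO_RA (difference of -2.39, adjusted p = 0.0156).

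A call in wild type liver alone does not show that the RA effect differed between genotypes. The test of that difference called 1 gene of 12393 (0.00807%), Obp2a, and gave an unadjusted p under 0.05 for 1446 genes. Obp2a read 4.77, 4.59 and 4.53 in KO and 4.19, 4.36 and 4.28 in KO_RA, and its effect was 2.39 larger in wild type liver (adjusted p = 0.00503). All these KO and KO_RA values lie under the lower quartile of the arrays (4.87 to 5.02), where signals are compressed, so the size of this difference is uncertain. For Cyp26a1 the difference between the effects was 1.73 (adjusted p = 0.0566), for Dclre1a 2.45 (0.0662), for Gas6 1.54 (0.0611), for Prom1 1.37 (0.0566), for Cd163 1.49 (0.085), for Aqp4 -1.95 (0.0777) and for Orm3 -0.26 (0.861). The number called by this test rose to 12 without WT_RA 3 and KO 1.

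**Figure D5:**
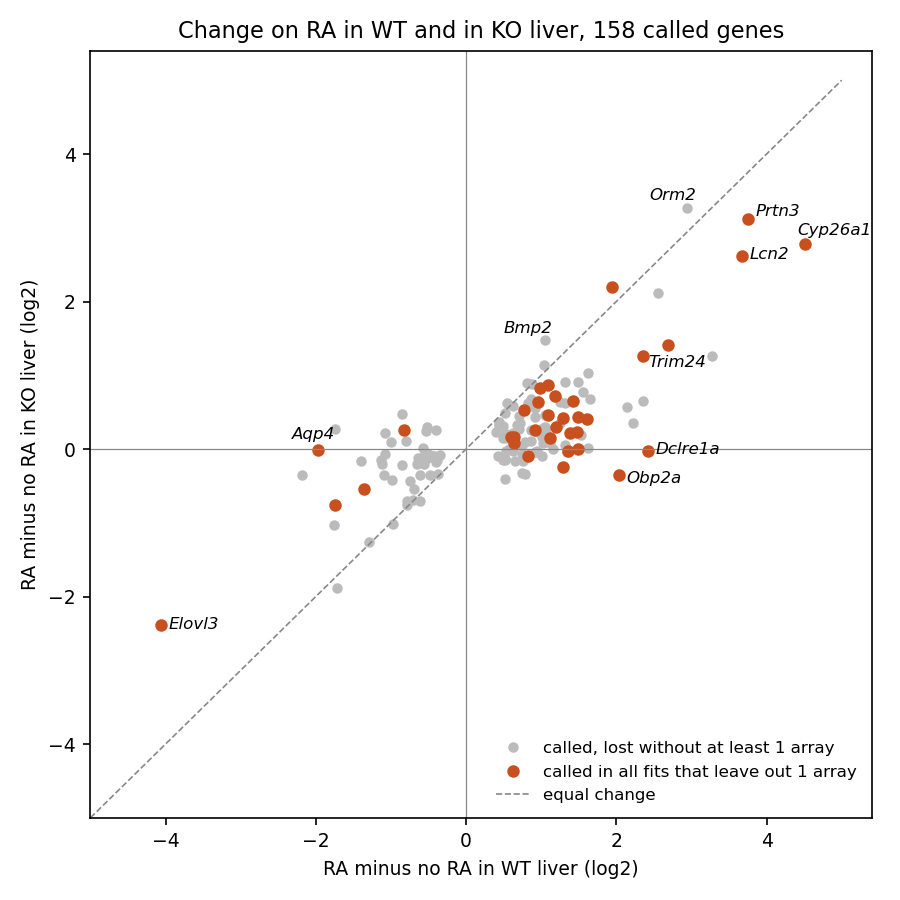
Difference between RA and no RA in KO liver (vertical axis) against that in WT liver (horizontal axis), in log2 units, for the 158 genes called in WT liver, with the 35 core genes in orange and the others in grey. Orm2 lies near the dashed line of equal change, while Obp2a, Dclre1a and Aqp4 lie near 0 or below on the KO axis, and the genes were chosen on the horizontal axis.

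Probe sets that match several gene symbols were tested apart, and no gene is named from them. Of 691, 9 were called (1.3%), 5 higher and 4 lower, and 5 of these were called in every fit that left out 1 array. The change of 1420603_s_at exceeded that of every single-symbol gene. It read 6.42, 7.33 and 7.69 in WT and 12.39, 11.79 and 11.58 in WT_RA, a rise of 4.77 ± 0.29 (adjusted p = 3.09e-06 over this class), and 7.22, 6.85 and 7.22 in KO and 8.70, 8.49 and 8.50 in KO_RA. The other stable rises were those of 1422660_at (1.502 ± 0.24) and 1426787_at (1.06 ± 0.11). The stable falls were those of 1452757_s_at, which read 12.18, 11.54 and 11.75 in WT and 10.52, 9.93 and 10.17 in WT_RA (fall of 1.61 ± 0.21, adjusted p = 0.00193), and of 1417184_s_at, which fell by 1.53 ± 0.23 (adjusted p = 0.00757). Both of these also fell in KO liver, by 1.90 and 1.86. Of 1555 probe sets without a symbol, 10 were called (0.643%), 8 higher and 2 lower. Of these, 1448754_at read 5.79, 5.88 and 6.90 in WT and 9.31, 8.74 and 8.87 in WT_RA (rise of 2.78 ± 0.36, adjusted p = 0.0107) and 1421382_at rose by 0.68 ± 0.09 (adjusted p = 0.0107), and both were called in every fit that left out 1 array. The largest fall of this class, 1452426_x_at, read 7.09, 9.41 and 6.99 in WT and 3.72, 3.11 and 3.25 in WT_RA, and its call was lost without any one of these 6 arrays or KO_RA 3 (adjusted p up to 0.139).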

How the data were processed

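Total liver RNA was hybridized to 12 Affymetrix arrays, of which the 6 wild type arrays are described here. The log2 values were deposited by the authors as 1 value per probe set and array. The submitters' processing notes list RMA, which corrects background, equalizes array distributions and summarizes probes, along with Partek 6.11, whereas MAS5 with a detection filter is given in the study's methods. The array medians and floors lie on a common scale. Scanner files were not used here, so background correction was not repeated, and dim signals are compressed toward a floor. The number of arrays limits the precision.

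Of 22690 probe sets, 64 were controls, 20380 had 1 gene symbol in the platform annotation, 691 had several and 1555 had none. Among probe sets of a gene the brightest on average over all 12 arrays was kept, giving 12393 genes (4956 had several probe sets), and dim probe sets were kept. Groups and replicate numbers came from the sample titles. All 12 arrays entered one limma fit (version 3.58.1, R 4.3.3, functions lmFit, contrasts.fit and eBayes) with a mean for each group and 8 residual degrees of freedom, and tests were two-sided. Contrasts were WT_RA minus WT, KO_RA minus KO, and the difference between these. The p-values of limma were adjusted by Benjamini-Hochberg over the genes of a contrast, or over the class of probe sets with several or no symbols, and genes were called under 0.05. Errors are SEs of this model with n = 3 arrays per group. The fit was tested on simulated data.

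The members, the gene lists (39 of pathways, 8 of cell types) and the rules were chosen with earlier results of these data known. Lists are described by counts and medians without a set test. Named are up to 20 rises and 15 falls of genes called in every fit that left out 1 array, up to 4 called members per list, the retinoid genes, and up to 5 probe sets per direction and class. Any other name was chosen after its values were seen, and 1 core gene is not reported here. Promoter windows and gene order came from RefSeq (GRCm38.p6). Alternatives were a replicate block, the wild type arrays only, leaving out both arrays that stood apart, further quantile normalization, median centring, a floor on dim genes (mean of at least 5), trend and robust eBayes, array weights, the mean of a gene's probe sets, and leaving out each array.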

Additional observations from a re-analysis of the deposited data

Results flagged for a closer look

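Among the genes with a symbol of their own, the effect of RA was called different between genotypes for 1, Obp2a. The change in wild type liver was 2.39 larger on the log2 scale than in the RXRα-deficient liver by limma's test of the difference (adjusted p = 0.00503). All 3 WT_RA arrays lay above all 3 WT arrays, while all 3 KO_RA arrays lay below all 3 KO arrays. The KO and KO_RA values lie under the lower quartile of the arrays (4.87 to 5.02), near the floor, so the size of the difference is uncertain. For probe sets with several symbols or none this test is not reported here. Among these, 1420603_s_at rose by 4.77 in wild type liver and by 1.47 in KO liver.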

How the results depend on the processing

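Of 158 genes called for RA in wild type liver (108 higher, 50 lower), leaving out 1 array gave 37 to 142 higher and 10 to 70 lower, with the fewest higher without WT 3. The wild type arrays alone gave 71 higher and 32 lower, and without WT_RA 3 and KO 1 there were 69 and 26. Array weights, which gave WT 2 a weight of 7.12 and the others 0.32 to 2.18, gave 646 and 424. The 35 core genes stayed called under the other 9 settings, except Ahr, Btg2, Plpp2 and Zfp36l1 with the mean of probe sets. With a replicate block, 113 genes were called (89 higher, 24 lower), 103 of them among the 158. Same-numbered WT and WT_RA arrays deviated together with correlations of 0.130, 0.080 and 0.145, so the numbers were not taken to pair mice.

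Probe sets with several symbols numbered 9, 5 with the replicate block, 54 with array weights and 5 to 10 with 1 array left out. Those without symbol numbered 10, 6 in the wild type arrays alone, 74 with array weights and 2 to 17 with 1 array left out. For RA in KO liver the 62 genes became 110 without WT_RA 3 and KO 1, 107 after further quantile normalization, 303 with array weights and 6 to 77 with 1 array left out, the fewest without KO 3. For the difference between genotypes the 1 gene became 2 with the replicate block, 12 without WT_RA 3 and KO 1, 5 with median centring, 5 with trend and robust eBayes, 247 with array weights, 6 with the mean of probe sets and 1 to 14 with 1 array left out. None of 52 called genes followed under all these settings changed direction, whereas 28 of 56 uncalled retinoid genes did in at least 1. Causes of these shifts were not tested. With 3 arrays per group, wide spreads and dim signals limit what could be called.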

Other observations

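Lists of other liver functions held few called genes. Of 15 iron genes, 1 was higher, Bmp6, which induces hepcidin, and 0 lower, with a median of 0.38. Bmp6 read 5.004, 5.15 and 5.32 in WT and 5.94, 5.59 and 5.83 in WT_RA and rose by 0.63 ± 0.11 (limma adjusted p = 0.0181, lost without WT 2, or WT_RA 3, up to 0.0651), while Hamp, the hepcidin gene, differed by 0.26 (adjusted p = 0.304). Bmp2, another ligand of this pathway, named after its values were seen, rose by 1.05 ± 0.18 (adjusted p = 0.0181, lost without WT 3, or WT_RA 2, up to 0.0698). Zonal genes moved little as lists. Of 14 pericentral genes, 1 was higher, the ammonium transporter gene Rhbg (1.02 ± 0.19, adjusted p = 0.0236, lost without WT 2 or 3, or WT_RA 1 or 2, up to 0.0985), and of 8 periportal genes, 1 was lower, Hal, with medians of 0.06 and -0.23. Of 24 amino acid genes, 0 were higher and 2 lower, Hal and the urea cycle gene Otc, and Otc fell by 0.37 ± 0.08 (adjusted p = 0.0452, lost in 11 of 12 fits that left out 1 array, up to 0.159). Of 31 complement and coagulation genes, 1 was higher, the kininogen gene Kng1 (0.45 ± 0.09, adjusted p = 0.0342, lost without WT 1, 2 or 3, WT_RA 2 or 3, or KO_RA 1 or 3, up to 0.143), and 1 lower, the complement component gene C8g (-0.39 ± 0.08, adjusted p = 0.0384, lost without WT 1, 2 or 3, WT_RA 2 or 3, KO 2, or KO_RA 1, 2 or 3, up to 0.151), with a median of 0.01.

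No gene was called among 15 glucose genes (median -0.04), 11 heme genes (-0.12), 26 genes of the unfolded protein response (0.09), 10 heat shock genes (0.20), 21 genes of Cyp2c enzymes and eicosanoids (0.12) and 29 conjugation genes (-0.17). Of 21 genes in a list that mixes partner receptors of RXR with other nuclear receptors, 1 was lower, Nr1d1, with a median of -0.05. Of 15 growth hormone and insulin-like growth factor genes, 1 was higher, Igfbp1, with a median of -0.03, and of 14 immediate early genes, 1 was higher, Btg2, with a median of 0.33.

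Cyp4a14, a fatty acid ω-hydroxylase gene named after its values were seen, split the RA arrays. It read 4.62, 4.56 and 5.56 in WT and 9.35, 10.19 and 5.42 in WT_RA, so that WT_RA 3 lay at the WT level, and the difference of 3.40 ± 1.003 did not pass (adjusted p = 0.153). Without WT_RA 3 and KO 1 it was 4.85 (adjusted p = 0.00929).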
